A study of Arabidopsis thaliana with 18 samples.

Results

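The genes described here are 10 Arabidopsis thaliana genes of gibberellin metabolism and perception, chosen by their identifiers from the 33602 genes of the expression table. They are 2 gibberellin 20-oxidases, GA20OX1 (AT4G25420) and GA20OX2 (AT5G51810), 2 gibberellin 3-oxidases, GA3OX1 (AT1G15550) and GA3OX2 (AT1G80340), 3 gibberellin 2-oxidases, GA2OX2 (AT1G30040), GA2OX6 (AT1G02400) and GA2OX8 (AT4G21200), and the 3 gibberellin receptors GID1A (AT3G05120), GID1B (AT3G63010) and GID1C (AT5G27320). Of the 10, 8 reached the minimum used for testing, 1 FPKM or more in 3 or more of 18 libraries, as did 19116 genes in all. GA20OX1 and GA2OX8 did not, and GA20OX2 passed only through libraries at 29 °C, which hold all 4 of its values of 1 FPKM or more, so its response is read with that in mind.

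RNA was sequenced from whole seedlings of the Columbia strain on day 7, in 6 groups of 3 libraries. The groups were the wild type at 22 °C and at 29 °C, a double mutant labelled BBX18-/-BBX23-/- (here bbx18 bbx23) at both temperatures, and a mutant labelled PIF4-/- (here pif4) at both. B-box proteins such as BBX18 and BBX23 carry zinc-binding domains, PIF4 is a bHLH factor that drives hypocotyl elongation in the warm, and the series title names the control of thermoresponsive hypocotyl growth by these B-box proteins. The mutant alleles, the hours spent at 29 °C, the hour of harvest and whether libraries came from separate sets of seedlings were not stated in the labels, so the p-values speak only of the spread between these libraries.

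Gibberellins are growth hormones that promote hypocotyl elongation. Their last steps of synthesis are run by soluble dioxygenases: 20-oxidases turn early precursors into late ones, 3-oxidases make the active hormone, and 2-oxidases inactivate the hormone or its precursors. The active hormone binds GID1 receptors in the nucleus, which then bind DELLA proteins, the repressors of the pathway, and send them to degradation. When gibberellin is low, plants are known to raise the mRNA of synthesis and receptor genes, and when it is high, that of 2-oxidases.

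Libraries of a group correlated at 0.958 to 0.991 over all genes. The sum of FPKM per library ran from 909028 to 1162160 at 22 °C and from 744698 to 963730 at 29 °C. FPKM values are reads per length of transcript and per size of the library, and read numbers behind them are unknown. In bulk seedlings, fewer cells of a type and less RNA per cell cannot be told apart. The green shoot markers RBCS1A, LHCA1, PSBO1 and RCA summed to 36900 to 61200 FPKM at 22 °C and to 16200 to 28300 FPKM at 29 °C, with 4 of 4 lower in each genotype. Of 5 root markers, summing to 117 to 309 FPKM over all libraries, 0 passed the test in the warm by limma (0 at an unadjusted p under 0.05). Of 6 seed storage markers, SESA1 and SESA3 were at 0 in all 18 libraries and the sum reached at most 1.7 FPKM, as that of 4 flower genes reached at most 1.17. The mutated genes checked the labels only in part: BBX23 was at 0 in all libraries, BBX18 in bbx18 bbx23 was at 0.623 times its wild-type mean at 22 °C, without overlap, and at 0.815 times at 29 °C, with overlap, and was called at neither. At 29 °C BBX18 went with replicate number, at 9.43, 64.35 and 29.9 FPKM in wild-type replicates 1, 2 and 3. In bbx18 bbx23 it read 7.12, 51.3 and 26.1 there, lower for each number. PIF4 was lower in pif4 at 29 °C, with a log2 difference of -0.84 (SE 0.13, adjusted p = 0.0109 by limma). At 22 °C PIF4 was at 0.701 times its wild-type mean, again without overlap, but its difference of -0.46 log2 (SE 0.13, adjusted p = 0.987 by limma) did not pass.

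At 29 °C the libraries also differed by replicate number, which touches several of the gibberellin genes. Replicates 1 and 2 were more than 1 log2 apart, with the same sign in each genotype, for 3.03% of all tested genes at 29 °C and for 0.0471% at 22 °C. Of the 10 gibberellin genes, GA3OX2 was the 1 that did so. Of 11 clock genes 4 did so at 29 °C and 0 at 22 °C: PRR9, a morning gene of the circadian clock, was higher in replicate 2 by a mean of 3.48 log2 GI by 2.39 and CCA1 by 1.14, and COR27 was lower by a mean of 2.30 (these 4 were named after their values were seen). Results that rest on replicates 1 or 2 at 29 °C are therefore given with and without them.

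By level the receptors came first. Over the 18 libraries GID1A averaged 15.4 FPKM ± 3.07 (SD, n = 18), GID1C 15.0 ± 2.61 and GID1B 9.79 ± 1.62. GID1A exceeded GID1C in 12 of 18 libraries, and GID1C exceeded GID1B in 18 of 18. The order of GID1A and GID1C went with temperature. GID1A was the higher in every library at 29 °C, in some by a narrow margin. GID1C was the higher in most libraries at 22 °C, among them every wild-type one. The main oxidases followed, with GA2OX6 at 6.90 FPKM ± 1.57, GA3OX1 at 5.70 ± 1.27 and GA2OX2 at 4.81 ± 2.94 (SD, n = 18). GA2OX6 was above GA3OX1, and GA3OX1 above GA2OX2, in 12 of 18 libraries each. These orders also went with temperature. GA2OX6 was above GA3OX1 in every library at 29 °C and below it in most at 22 °C. GA3OX1 was above GA2OX2 in every library at 22 °C and below it in most at 29 °C. The rest were low: GA3OX2 averaged 1.56 FPKM ± 1.09, GA20OX2 0.79 ± 0.528, GA20OX1 0.699 ± 0.173 and GA2OX8 0.389 ± 0.152 (SD, n = 18). GA20OX2 was above GA20OX1 in 8 of 18 libraries, which gives no order between the 20-oxidases.

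**Figure D1:**
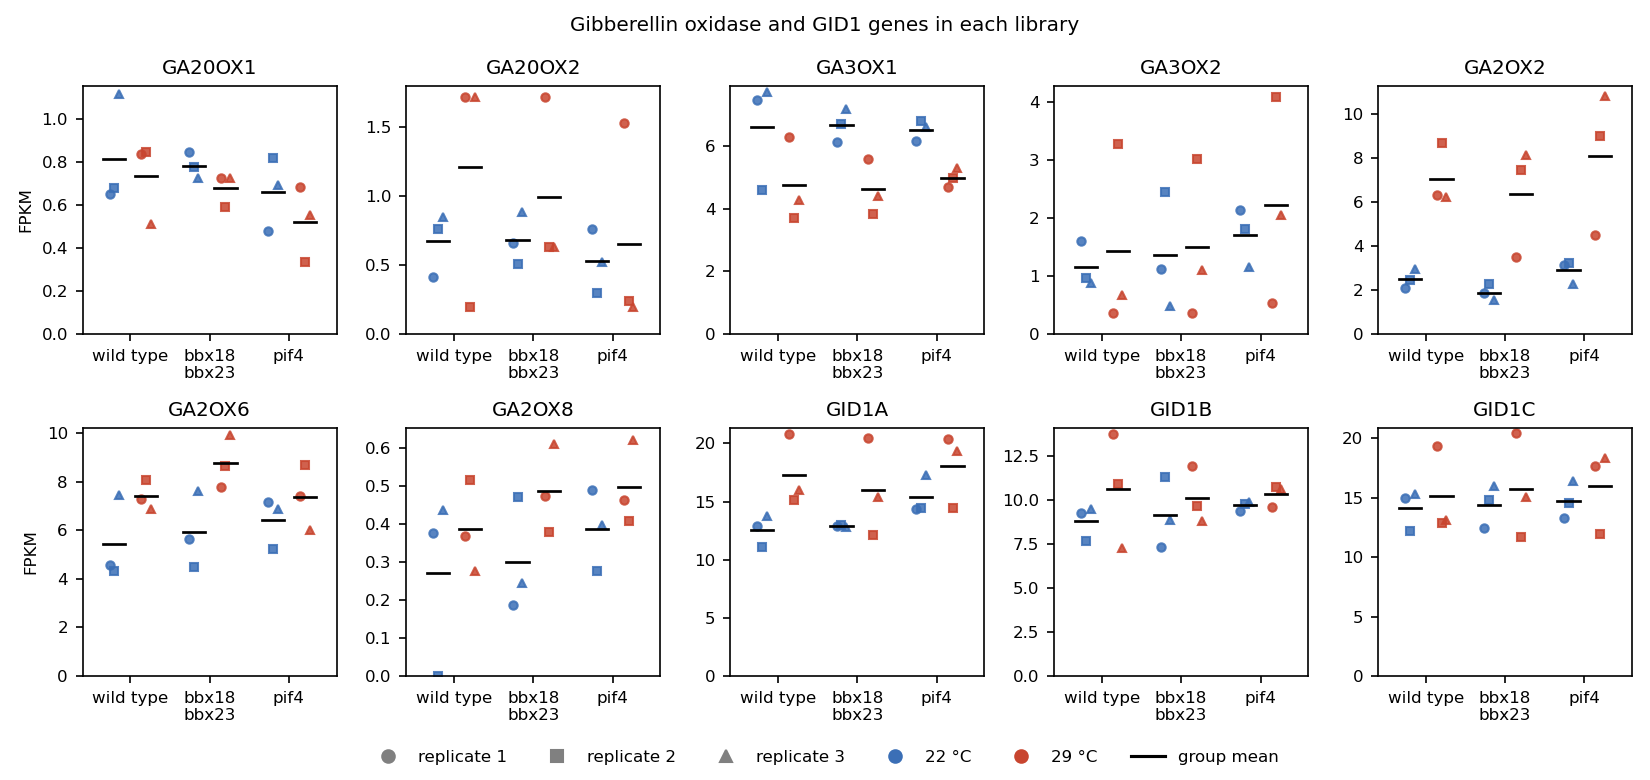
FPKM of each of the 10 gibberellin genes in each of the 18 libraries, by genotype (x axis) and temperature (blue 22 °C, red 29 °C), with a symbol for each replicate number and a bar at the mean of 3 libraries. GA2OX2 at 29 °C lies above 22 °C in every genotype, GA3OX1 means are lower at 29 °C, and the GA3OX2 and GA20OX2 values at 29 °C spread by replicate number.

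The comparison of 29 °C with 22 °C asks how the warmth changed these genes in each genotype. GA2OX2, a 2-oxidase that inactivates active gibberellin, rose 2.81 times in mean FPKM in the wild type, 3.37 times in bbx18 bbx23 and 2.81 times in pif4. It was the only 1 of the 8 tested gibberellin genes that passed the test within each genotype. With the 3 genotypes averaged, GA2OX6 and GID1A also rose and GA3OX1, a main enzyme of the last step of synthesis, fell, each by less than 0.5 in log2. Tested differences are on the scale of log2(FPKM + 1), which understates the change of low genes. The share of all genes without overlap between groups is not given here. A lack of overlap is therefore a description of single genes throughout.

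In single genotypes, 1 of 8 was called higher and 0 lower each time, where limma called 5.63% of all tested genes higher and 8.55% lower in the wild type, 5.52% and 8.06% in bbx18 bbx23, and 4.67% and 8.49% in pif4. For the mean of the 3 warm responses, 3 of 8 were higher, against 17.3% of all genes, and 1 of 8 was lower, against 21.3%. The mean response takes all libraries of a temperature as independent. At 29 °C same-numbered libraries deviated together between genotypes for replicates 1 and 2 (correlations 0.47 to 0.78), less so for replicate 3 (-0.32 to 0.24). A deviation shared by the genotypes does not average out. The SE of the mean response may thus be too small, also for calls made only there. The median log2 difference of the 8 genes was 0.26 in the wild type, 0.17 in bbx18 bbx23, 0.10 in pif4 and 0.16 for the mean response, and that of all tested genes lay between -0.03 and 0.00. With 8 genes these counts describe single genes and not the set.

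The 20-oxidases, which make the late precursors, were low in all groups. GA20OX1 read 0.652, 0.678 and 1.11 FPKM at 22 °C in wild-type replicates 1, 2 and 3 and 0.838, 0.847 and 0.512 at 29 °C. In bbx18 bbx23 it read 0.847, 0.778 and 0.723 FPKM at 22 °C and 0.725, 0.590 and 0.727 at 29 °C. In pif4 the values were 0.478, 0.816 and 0.693 FPKM at 22 °C and 0.682, 0.335 and 0.551 at 29 °C. All neighbouring groups in order of mean, from the wild type at 22 °C with 0.815 FPKM down to pif4 at 29 °C with 0.523, overlapped. Fitted without the minimum on low values, its mean warm response was -0.09 log2 (SE 0.07, adjusted p = 0.329 by limma).

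GA20OX2, the other 20-oxidase, was more even at 22 °C than at 29 °C. In the wild type it read 0.414, 0.759 and 0.850 FPKM in replicates 1, 2 and 3 at 22 °C and 1.72, 0.195 and 1.71 at 29 °C. In bbx18 bbx23 it read 0.660, 0.507 and 0.882 FPKM at 22 °C and 1.72, 0.626 and 0.629 at 29 °C, and in pif4 0.760, 0.299 and 0.523 at 22 °C and 1.52, 0.242 and 0.194 at 29 °C. Replicate 1 was thus the highest library at 29 °C in every genotype, and the temperatures overlapped in all 3. Its spread within groups was 0.20 (SD of log2(FPKM + 1)) at 22 °C and 0.58 at 29 °C, where the median tested gene had 0.19 and 0.23. The added 1 compresses the spread of a gene this low. The warm response, 0.31 log2 (SE 0.32) in the wild type, 0.20 (SE 0.32) in bbx18 bbx23 and 0.03 (SE 0.32) in pif4, did not pass the test by limma (adjusted p = 0.594, 0.735 and 0.967).

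GA3OX1, which with GA3OX2 forms the active hormone in vegetative tissue, was the main 3-oxidase and was lower in the warm. It read 7.48, 4.61 and 7.73 FPKM at 22 °C in wild-type replicates 1, 2 and 3 and 6.32, 3.70 and 4.30 at 29 °C. In bbx18 bbx23 it read 6.14, 6.73 and 7.19 FPKM at 22 °C and 5.60, 3.84 and 4.42 at 29 °C, and in pif4 6.17, 6.80 and 6.62 at 22 °C and 4.70, 4.99 and 5.31 at 29 °C. Both mutants had every library at 29 °C below every library at 22 °C, while in the wild type the temperatures overlapped through replicate 2 at 22 °C and replicate 1 at 29 °C. The mean of the 3 warm responses was -0.40 log2 (SE 0.10, adjusted p = 0.00702 by limma), and lower values at 29 °C were found in 3 of 3 genotypes. Within single genotypes the values were -0.40 (SE 0.18, adjusted p = 0.173) in the wild type, -0.46 (SE 0.18, adjusted p = 0.107) in bbx18 bbx23 and -0.33 (SE 0.18, adjusted p = 0.269) in pif4. Without replicate 1 at 29 °C in all genotypes the response passed in the wild type (-0.58, adjusted p = 0.0388) and in bbx18 bbx23 (-0.58, adjusted p = 0.0373), and with wild-type replicate 2 at 22 °C left out it passed in the wild type (-0.60, adjusted p = 0.0383). Without replicate 2 at 29 °C in all genotypes the wild-type value was instead -0.26 (adjusted p = 0.468) and the mean response -0.32 (adjusted p = 0.0462).

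GA3OX2, the second 3-oxidase, showed no common change with temperature and the widest spread by replicate. In replicates 1, 2 and 3 of the wild type it read 1.59, 0.971 and 0.873 FPKM at 22 °C and 0.368, 3.27 and 0.664 at 29 °C. In bbx18 bbx23 the values were 1.12, 2.45 and 0.490 FPKM at 22 °C and 0.358, 3.0 and 1.11 at 29 °C, and in pif4 2.13, 1.80 and 1.15 at 22 °C and 0.531, 4.08 and 2.04 at 29 °C. At 29 °C replicate 2 was the highest and replicate 1 the lowest library in each of the 3 genotypes, and all groups overlapped. The mean warm response was 0.05 log2 (SE 0.28, 95% interval -0.54 to 0.63, adjusted p = 0.912 by limma), an interval that leaves room for a change of either sign. It became -0.06 with a pseudocount of 0.1 and ran from -0.40 to 0.43 when single libraries or a replicate number at 29 °C were left out.

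GA2OX2, the 2-oxidase with the main response, was low at 22 °C in every library. In replicates 1, 2 and 3 of the wild type it read 2.10, 2.48 and 2.98 FPKM at 22 °C and 6.31, 8.67 and 6.25 at 29 °C. In bbx18 bbx23 it read 1.85, 2.29 and 1.53 FPKM at 22 °C and 3.49, 7.47 and 8.15 at 29 °C. In pif4 it read 3.15, 3.24 and 2.28 FPKM at 22 °C and 4.50, 9.02 and 10.8 at 29 °C. All 9 libraries at 29 °C lay above all 9 at 22 °C, and replicate 1 was the lowest at 29 °C in both mutants. The warm response was 1.19 log2 (SE 0.28, adjusted p = 0.00787) in the wild type, 1.29 (SE 0.28, adjusted p = 0.005) in bbx18 bbx23 and 1.16 (SE 0.28, adjusted p = 0.0102) in pif4 by limma. The mean response of 1.22 log2 (SE 0.16, 95% interval 0.88 to 1.55, adjusted p = 1.82e-05) was larger than that of 99.0% of tested genes. The call in pif4 was lost when only the 6 pif4 libraries were fitted (1.16, adjusted p = 0.0513).

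GA2OX6, a second 2-oxidase of active gibberellin, stood higher than GA2OX2 at 22 °C and changed less. It read 4.55, 4.33 and 7.48 FPKM at 22 °C in wild-type replicates 1, 2 and 3 and 7.28, 8.06 and 6.87 at 29 °C. In bbx18 bbx23 it read 5.67, 4.50 and 7.64 FPKM at 22 °C and 7.77, 8.66 and 9.94 at 29 °C, and in pif4 7.16, 5.23 and 6.90 at 22 °C and 7.43, 8.68 and 6.01 at 29 °C. The temperatures were separate in bbx18 bbx23 and overlapped in the wild type and in pif4. The mean warm response of 0.37 log2 (SE 0.11, adjusted p = 0.0181 by limma) was called, and the values were 0.41 (adjusted p = 0.195), 0.52 (adjusted p = 0.0971) and 0.17 (adjusted p = 0.646) in the wild type, bbx18 bbx23 and pif4. Without replicate 2 at 29 °C in all genotypes the mean response was 0.31 (adjusted p = 0.0846), and without replicate 3 at 22 °C of the genotype concerned the wild type (0.62, adjusted p = 0.0477) and bbx18 bbx23 (0.69, adjusted p = 0.0451) passed singly.

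GA2OX8, a 2-oxidase that acts on the longer precursors, was the lowest of the 10. In the wild type it read 0.376, 0 and 0.437 FPKM in replicates 1, 2 and 3 at 22 °C and 0.368, 0.516 and 0.277 at 29 °C. In bbx18 bbx23 it read 0.187, 0.471 and 0.245 FPKM at 22 °C and 0.474, 0.378 and 0.612 at 29 °C, and in pif4 0.490, 0.276 and 0.398 at 22 °C and 0.463, 0.409 and 0.622 at 29 °C. Every neighbouring pair of groups overlapped. Fitted without the minimum, the mean warm response was 0.15 log2 (SE 0.07, adjusted p = 0.139 by limma).

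As a description, the share of the 2-oxidases in the summed FPKM of the 7 oxidase genes in wild-type seedlings was 47.0% ± 5.28 at 22 °C and 64.5% ± 4.09 at 29 °C (SD, n = 3). The shares were 46.0% ± 4.74 and 66.2% ± 7.46 in bbx18 bbx23, and 50.7% ± 2.98 and 65.4% ± 2.92 in pif4 (SD, n = 3). That of the 3-oxidases was 44.4% ± 7.29 and 26.8% ± 2.44 in the wild type, 45.6% ± 5.53 and 26.4% ± 4.2 in bbx18 bbx23, and 43.1% ± 3.09 and 29.3% ± 3.18 in pif4 (SD, n = 3). The 2-oxidase share was 58.3% or more in every library at 29 °C and 53.1% or less in every library at 22 °C. The sum of 2-oxidase FPKM was 8.24 ± 2.30 and 14.9 ± 2.08, and that of 3-oxidases 7.75 ± 1.89 and 6.21 ± 1.08, in wild-type seedlings at 22 °C and 29 °C (SD, n = 3). A share of mRNA says nothing of enzyme activity or hormone level, which were not measured.

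**Figure D2:**
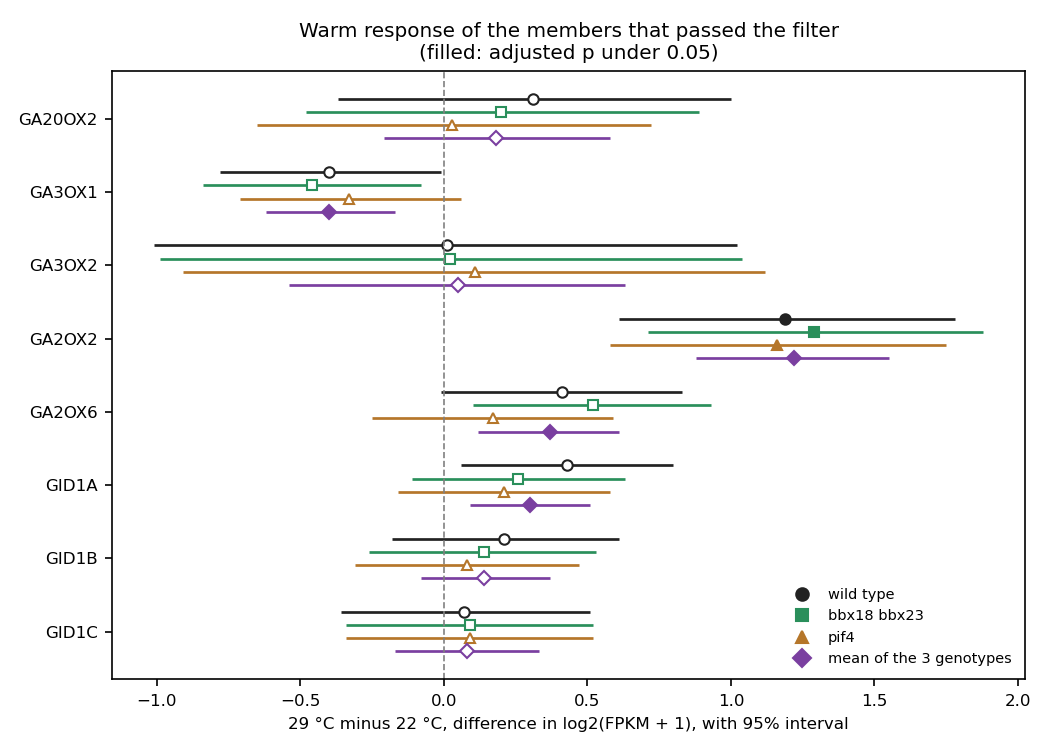
Warm response of the 8 tested gibberellin genes, as the difference 29 °C minus 22 °C in log2(FPKM + 1) with its 95% interval, in the wild type, bbx18 bbx23, pif4 and the mean of the 3, with filled symbols where the adjusted p is under 0.05. GA2OX2 lies at 1.16 to 1.29 in every genotype with all symbols filled, and GA3OX1 lies below 0 throughout.

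Among the receptors, GID1A rose in the mean of the 3 genotypes and GID1B and GID1C did not pass the test. GID1A read 12.9, 11.1 and 13.8 FPKM at 22 °C in wild-type replicates 1, 2 and 3 and 20.8, 15.1 and 16.0 at 29 °C. In bbx18 bbx23 it read 12.9, 12.9 and 12.8 FPKM at 22 °C and 20.5, 12.1 and 15.4 at 29 °C, and in pif4 14.3, 14.5 and 17.3 at 22 °C and 20.4, 14.5 and 19.3 at 29 °C. The temperatures were separate in the wild type and overlapped in both mutants through replicate 2 at 29 °C, and replicate 1 was the highest library at 29 °C in all 3 genotypes. Its mean warm response was 0.30 log2 (SE 0.10, adjusted p = 0.0269 by limma), from 0.43 (SE 0.17, adjusted p = 0.124) in the wild type, 0.26 (SE 0.17, adjusted p = 0.363) in bbx18 bbx23 and 0.21 (SE 0.17, adjusted p = 0.493) in pif4. The call rested on replicate 1 at 29 °C: without it in all genotypes the value was 0.16 (adjusted p = 0.153). It was also lost, at adjusted p from 0.0506 to 0.056, without any 1 of replicate 2 of the wild type at 22 °C, replicate 1 of pif4 at 22 °C, or replicate 1 of the wild type, bbx18 bbx23 or pif4 at 29 °C.

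GID1B, the receptor whose sequence differs most from the other 2, read 9.27, 7.68 and 9.48 FPKM at 22 °C in wild-type replicates 1, 2 and 3 and 13.8, 10.9 and 7.29 at 29 °C. In bbx18 bbx23 it read 7.34, 11.3 and 8.88 FPKM at 22 °C and 11.9, 9.64 and 8.79 at 29 °C, and in pif4 9.37, 9.80 and 9.90 at 22 °C and 9.60, 10.8 and 10.6 at 29 °C. The temperatures overlapped in all 3 genotypes, and the mean response was 0.14 log2 (SE 0.11, 95% interval -0.08 to 0.37, adjusted p = 0.31 by limma).

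GID1C read 15.0, 12.2 and 15.3 FPKM at 22 °C in wild-type replicates 1, 2 and 3 and 19.4, 12.9 and 13.2 at 29 °C. In bbx18 bbx23 it read 12.4, 14.8 and 16.0 FPKM at 22 °C and 20.4, 11.7 and 15.0 at 29 °C, and in pif4 13.3, 14.6 and 16.4 at 22 °C and 17.7, 12.0 and 18.4 at 29 °C. This receptor also overlapped between temperatures everywhere, with replicate 2 the lowest library at 29 °C in each genotype. Its mean response was 0.08 log2 (SE 0.12, 95% interval -0.17 to 0.33, adjusted p = 0.609 by limma). A difference between the responses of the receptors was not tested. Their coding sequences in the TAIR10.1 reference (RefSeq) agreed at 84.2% of aligned bases between GID1A and GID1C, 71.4% between GID1A and GID1B and 72.5% between GID1B and GID1C. None of the 10 genes had another transcript at 90% identity over 50% of its length, and none overlapped another annotated gene, on either strand.

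GID1A made up 35.4% ± 0.597 of the summed GID1 FPKM in wild-type seedlings at 22 °C and 40.5% ± 2.96 at 29 °C (SD, n = 3). It was 35.5% ± 3.45 and 38.1% ± 1.61 in bbx18 bbx23 and 38.5% ± 1.2 and 40.5% ± 2.02 in pif4 (SD, n = 3). The sum of the 3 receptors was 35.6 FPKM ± 4.01 and 43.1 ± 9.49 in the wild type, 36.5 ± 3.39 and 41.8 ± 9.95 in bbx18 bbx23, and 39.8 ± 3.43 and 44.4 ± 6.24 in pif4, at 22 °C and 29 °C. These sums were higher in the warm in mean and overlapped between temperatures within the spread of the libraries at 29 °C.

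The comparison of genotypes asks whether loss of BBX18 and BBX23 or of PIF4 changed these genes at either temperature. At this number of libraries 0 of 8 gibberellin genes passed the test by limma in any of the 5 contrasts, and 0 of the 40 differences had an unadjusted p under 0.05. The background was as sparse: 0.0262% of all genes were called between bbx18 bbx23 and the wild type at 22 °C, 0.0209% between pif4 and the wild type at 22 °C, 0.0157% and 0.136% for the same pairs at 29 °C (0.0366% higher and 0.0994% lower in pif4), and 0.0942% between bbx18 bbx23 and pif4 at 29 °C (0.068% higher and 0.0262% lower in bbx18 bbx23). The contrasts with the wild type at 1 temperature share its libraries. Each gene had 1 spread fitted over both temperatures, although that of GA2OX2 was 0.19 at 22 °C and 0.49 at 29 °C (SD of log2(FPKM + 1)). The same held for GA20OX2 (0.20 and 0.58) and GA3OX2 (0.41 and 0.84). For such genes the SE and interval are too wide at 22 °C and too narrow at 29 °C. The counts of 0 do not show that the genotypes were equal.

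The 40 differences ran from -0.41 log2 (SE 0.32, 95% interval -1.09 to 0.27), for the precursor enzyme gene GA20OX2 at 29 °C in pif4 minus the wild type, to 0.43 (SE 0.48, 95% interval -0.59 to 1.44), for GA3OX2 in the same pair. Their 95% intervals reached from -1.36 to 1.44, and the widest belonged to the 3-oxidase gene GA3OX2. The receptor GID1A had the smallest unadjusted p, 0.139 (adjusted p = 0.987 by limma), at 22 °C for pif4 minus the wild type. There the 3 pif4 libraries lay above the 3 wild-type ones by 0.27 log2 (SE 0.17), given as a description only. Replicates of the same number deviated together in that pair of groups, and once replicate number was added as a block within temperature the count of all genes called there went from 4 to 13, again with 0 of the 8 gibberellin genes.

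For GA2OX2, the gene that rose in the warm in each genotype, bbx18 bbx23 differed from the wild type by -0.28 log2 (SE 0.28, 95% interval -0.87 to 0.30) at 22 °C and by -0.19 (SE 0.28, 95% interval -0.77 to 0.40) at 29 °C. The differences of pif4 from the wild type were 0.14 (SE 0.28, 95% interval -0.44 to 0.73) and 0.12 (SE 0.28, 95% interval -0.47 to 0.70). At 29 °C bbx18 bbx23 was -0.30 log2 from pif4 (SE 0.28, 95% interval -0.89 to 0.28). In order of mean level pif4 was the highest and bbx18 bbx23 the lowest at both temperatures, with 8.11, 7.08 and 6.37 FPKM at 29 °C and 2.89, 2.52 and 1.89 at 22 °C for pif4, the wild type and bbx18 bbx23. Neighbours in this order overlapped, and none of these differences passed the test.

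The warm response of each mutant was also set against that of the wild type. Of the 8 gibberellin genes 0 passed by limma in either mutant, with 0 of the 16 differences at an unadjusted p under 0.05. Of all 19116 genes, 0% passed for bbx18 bbx23 (133 at an unadjusted p under 0.05) and 0.0157% for pif4. These 133 are fewer than a threshold of 0.05 would give if no gene differed. The fit was thus cautious, and the counts of 0 do not show that the responses were equal. For GA2OX2 the response differed by 0.10 log2 (SE 0.39, 95% interval -0.73 to 0.93) in bbx18 bbx23 and by -0.03 (SE 0.39, 95% interval -0.86 to 0.80) in pif4. For GA3OX1 the differences were -0.06 (SE 0.26, 95% interval -0.61 to 0.48) and 0.07 (SE 0.26, 95% interval -0.48 to 0.61). The 16 values lay between -0.28 and 0.10, and their intervals between -1.42 and 1.54. For GA2OX2 a difference of 1.19 log2, the wild-type estimate (SE 0.28), lies outside both intervals, which are unadjusted. PIF4 mRNA in pif4 at 29 °C was still 0.534 times its wild-type mean, and the function left in either mutant was not measured.

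Of the 10 gibberellin genes, 6 differed between replicates 1 and 2 at 29 °C with the same sign in all 3 genotypes, and GA20OX1, GA3OX1, GA2OX8 and GID1B did not. At 22 °C 2 of the 10 had the same sign throughout. The share of all tested genes with the same sign was not computed, so neither count is read as particular to these genes. At 29 °C replicate 2 exceeded replicate 1 by 1.64 log2 in the wild type, 1.56 in bbx18 bbx23 and 1.73 in pif4 for GA3OX2, and by 0.41, 0.92 and 0.87 for GA2OX2. It was below replicate 1 for GA20OX2, at -1.19, -0.74 and -1.02, for GID1A, at -0.44, -0.71 and -0.47, and for GID1C, at -0.55, -0.76 and -0.53. Within-group SDs of log2(FPKM + 1) rose from 0.41 at 22 °C to 0.84 at 29 °C for GA3OX2, from 0.19 to 0.49 for GA2OX2 and from 0.12 to 0.29 for GID1A. They went from 0.22 to 0.23 for GA3OX1 and from 0.31 to 0.17 for GA2OX6. After removal of the group means, the 9 libraries at 29 °C had a Pearson correlation of -0.90 between GA20OX2 and GA3OX2 and of 0.99 between GID1A and GID1C, as a description, since these libraries share their replicate numbers. At 22 °C the same values were -0.54 and 0.73.

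**Figure D3:**
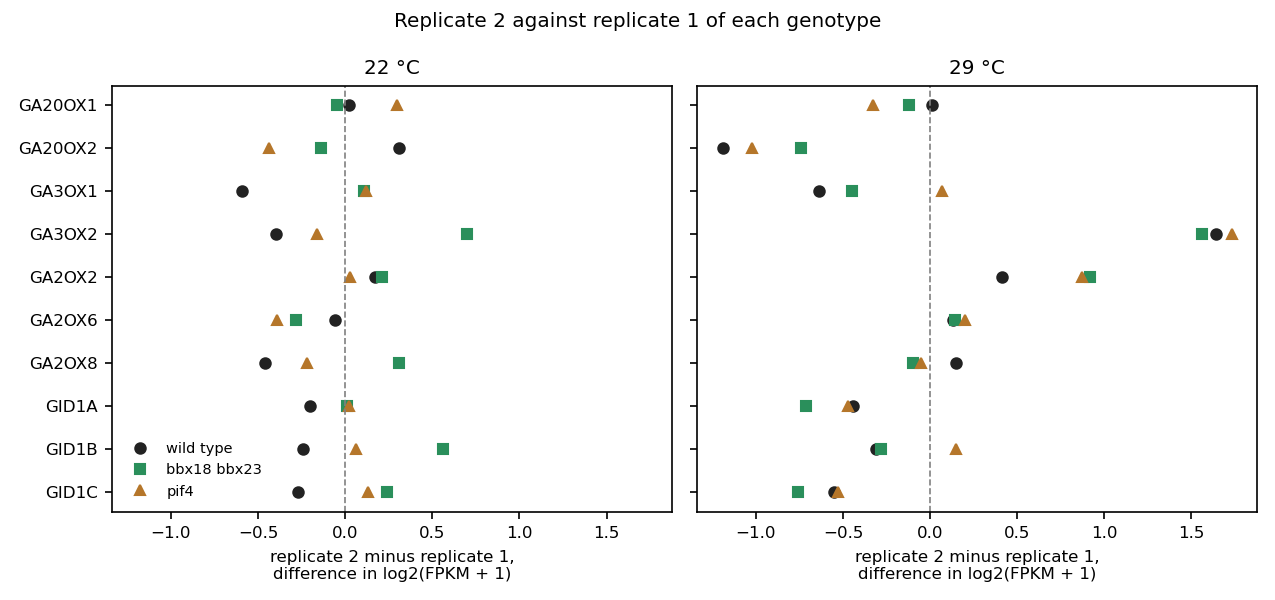
Difference of replicate 2 from replicate 1 in log2(FPKM + 1) for the 10 gibberellin genes at 22 °C (left) and 29 °C (right), with a symbol for each genotype. At 29 °C GA3OX2 lies at 1.56 to 1.73 in all 3 genotypes, and GA20OX2, GID1A and GID1C lie below 0 in all 3.

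The rest of the pathway was described with 39 further genes, of which 27 reached the minimum for testing. In the mean warm response 9 of the 27 were higher and 3 lower by limma, against 17.3% and 21.3% of all tested genes, with a median of 0.10 log2 against -0.01. Within single genotypes 4 were higher in the wild type and in bbx18 bbx23 and 3 in pif4, with 0 lower each time. Of all tested genes, 5.63%, 5.52% and 4.67% were higher in the wild type, bbx18 bbx23 and pif4, and 8.55%, 8.06% and 8.49% lower. These counts depended on the replicates at 29 °C: without replicate 1 there in all genotypes 7 were higher and 2 lower in the wild type and 6 and 1 in bbx18 bbx23, and with replicate number blocked within temperature 9 were higher and 3 lower in the wild type, 10 and 2 in bbx18 bbx23 and 7 and 2 in pif4. Between genotypes and between warm responses 0 of the 27 passed in any contrast with all libraries, with at most 3 at an unadjusted p under 0.05. Without pif4 replicate 3 at 29 °C, GASA6 was called lower in pif4 than in the wild type at 29 °C (-0.84 log2, adjusted p = 0.0472 by limma; named after its values were seen).

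Among 5 genes of early synthesis, 4 were tested and 2 were higher in the mean response, against 17.3% of all tested genes. KAO1, an ent-kaurenoic acid oxidase, read 3.78, 3.95 and 4.2 FPKM at 22 °C in wild-type replicates 1, 2 and 3 and 5.51, 4.09 and 6.04 at 29 °C, and its mean response over genotypes was 0.37 log2 (SE 0.10, adjusted p = 0.00543). GA2, the ent-kaurene synthase, was near 1 FPKM and rose by 0.21 log2 (SE 0.08, adjusted p = 0.0485), a call lost in 19 of 26 alternatives. The other members of the oxidase families were scarcely present: 0 of 5 further 20- and 3-oxidases reached the minimum, their sum was at most 0.331 FPKM in any library, and GA3OX3 and GA3OX4 were listed at 0 in all 18. Of 8 further inactivation genes, 2 were tested, the 2-oxidase GA2OX4 with a mean response of 0.10 log2 (SE 0.13, adjusted p = 0.575) and CYP714A1, and 0 passed (0 at an unadjusted p under 0.05).

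All 9 genes of the DELLA proteins, of their destruction and of their modification were tested. In the mean response 2 were higher and 1 lower, against 17.3% and 21.3% of all tested genes, so the count is near that share. The DELLA gene GAI averaged 34.3 FPKM ± 6.11 at 22 °C and 50.3 ± 6.20 at 29 °C in wild-type seedlings (SD, n = 3). These groups did not overlap, while the temperatures overlapped in bbx18 bbx23 (1.33 times in mean) and in pif4 (1.17 times). The mean response of GAI over genotypes was 0.39 log2 (SE 0.11, adjusted p = 0.0081 by limma). At 29 °C its 3 pif4 libraries lay below the 3 wild-type ones, at 0.679 times their mean. That difference of -0.55 log2 (95% interval -0.94 to -0.16) did not pass over all genes. RGL1, another DELLA gene, had a mean response of 0.50 log2 (SE 0.13, adjusted p = 0.00739), lost without replicate 2 at 29 °C in all genotypes. SEC, an O-GlcNAc transferase that modifies DELLA proteins, had -0.20 log2 (SE 0.06, adjusted p = 0.0239), lost in 4 of 26 alternatives. In single genotypes 0 of the 9 passed, with 3 at an unadjusted p under 0.05 in the wild type, 2 in bbx18 bbx23 and 0 in pif4. The DELLA gene RGL2 went with replicate number at 29 °C, at 4.45, 22.3 and 9.98 FPKM in wild-type replicates 1, 2 and 3, and its mean response of 0.71 log2 (SE 0.35, adjusted p = 0.122) did not pass (RGL2 was named after its values were seen).

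Of 12 genes that respond to gibberellin or regulate its synthesis, all were tested. In the mean response 5 were higher and 2 lower, against 17.3% and 21.3% of all tested genes. GASA14, of a family of small cysteine-rich proteins regulated by gibberellin, read 55.4, 35.5 and 54.6 FPKM at 22 °C in wild-type replicates 1, 2 and 3 and 421, 340 and 249 at 29 °C. In bbx18 bbx23 it averaged 44.0 ± 7.98 and 234.8 ± 31.0 FPKM, and in pif4 38.0 ± 6.79 and 168.0 ± 37.9 (SD, n = 3). No group at 29 °C overlapped its partner at 22 °C, and the response was 2.77 log2 (SE 0.23, adjusted p = 1.04e-06) in the wild type, 2.40 (SE 0.23, adjusted p = 5.47e-06) in bbx18 bbx23 and 2.11 (SE 0.23, adjusted p = 1.71e-05) in pif4 by limma. At 29 °C the 3 pif4 libraries lay below the 3 wild-type ones, at 0.499 times their mean, a difference of -0.99 log2 (95% interval -1.47 to -0.51, adjusted p = 0.232 by limma) that did not pass over all genes. The pif4 response minus the wild-type response was -0.66 log2 (95% interval -1.34 to 0.02) and did not pass either.

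GASA1, of the same family, averaged 708.5 ± 96.9 FPKM at 22 °C and 2319 ± 279.5 at 29 °C in wild-type seedlings (SD, n = 3), with a mean response over genotypes of 1.60 log2 (SE 0.10, adjusted p = 7.61e-09 by limma). IDD2, a DELLA-binding zinc finger protein that promotes GA20OX2 expression, read 3.73, 3.87 and 4.06 FPKM at 22 °C in wild-type replicates 1, 2 and 3 and 12.1, 6.74 and 13.9 at 29 °C. Both were called in each genotype. GA20OX2 was called in none, but at its low level, with an SE of 0.32 log2 in each genotype, a missing call says little. At 29 °C IDD2 was lower in replicate 2 than in replicate 1 in all 3 genotypes, at a mean of -0.77 log2. GA20OX2, at -0.98, was also lower there, as were GID1A and GID1C. A link between IDD2 and GA20OX2 was not tested. The fourth, GASA4, had a mean response of 0.80 log2 (SE 0.13, adjusted p = 0.000134), and was called in the wild type (1.03, adjusted p = 0.00538) and in bbx18 bbx23 (0.78, adjusted p = 0.0287, lost in 6 of 15 alternatives). In pif4 its value was 0.60 (SE 0.22, adjusted p = 0.0925). The remaining calls, named after their values were seen, were GASA6 at 0.35 log2, the GRAS gene SCL3 at -0.32 (lost without replicate 1 at 29 °C in all genotypes) and TEM2, a repressor of 3-oxidase genes, at -0.84, the last lost in 14 of 26 alternatives.

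**Figure D4:**
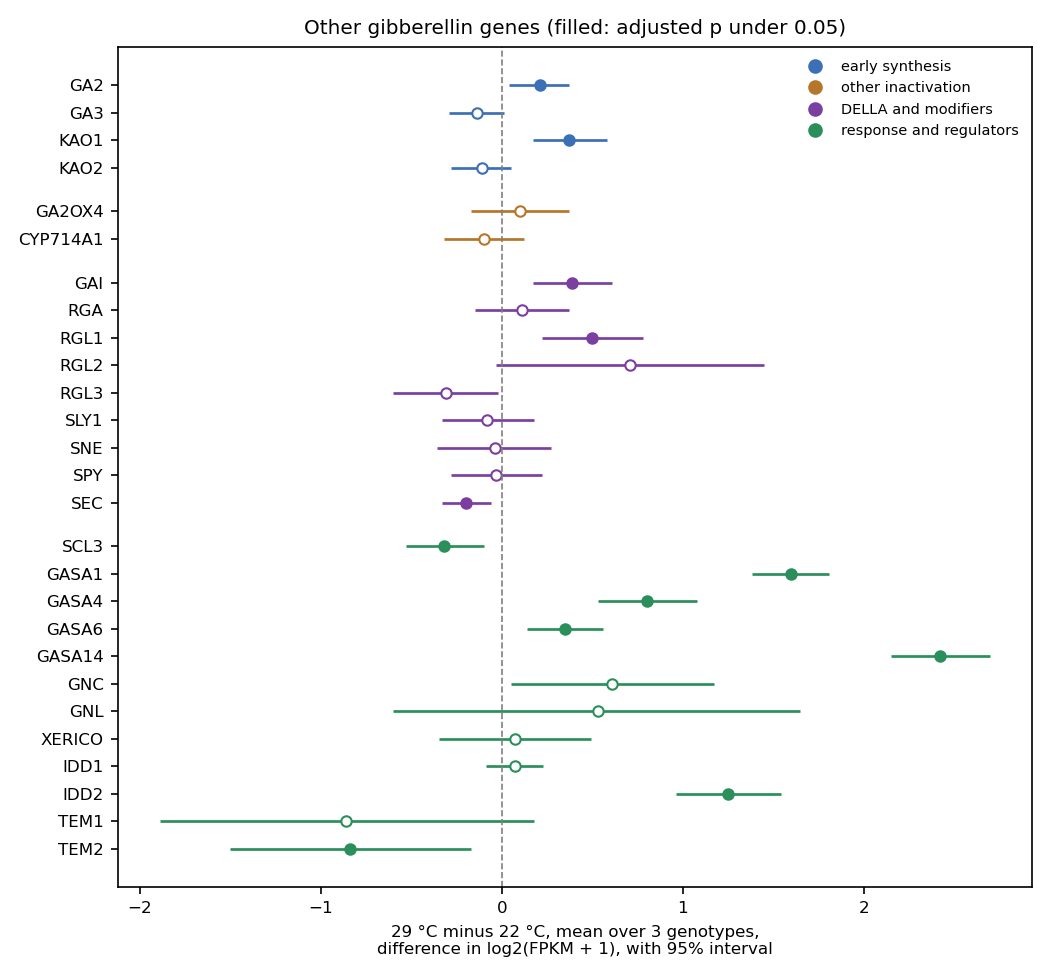
Mean warm response over the 3 genotypes, in log2(FPKM + 1) with its 95% interval, of the 27 further gibberellin genes that reached the minimum for testing, coloured by role, with filled symbols where the adjusted p is under 0.05. GASA14 at 2.42, GASA1 at 1.60 and IDD2 at 1.25 lie farthest to the right, and the DELLA genes GAI and RGL1 lie at 0.39 and 0.50.

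Genes of the circadian clock moved with temperature too. Of 11 clock genes 8 were higher and 2 lower in the mean warm response by limma, against 17.3% and 21.3% of all tested genes, among them the evening genes BOA at 2.02 log2 (SE 0.07), LUX at 2.17 (SE 0.14) and TOC1 at 1.35 (SE 0.09) and the gene PRR5 at 1.56 (SE 0.10). The summed FPKM of the 11 ran from 355 to 491 at 22 °C and from 272 to 429 at 29 °C. The part of the clock genes, and of the lower green shoot markers, in the responses of the gibberellin genes was not tested.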

How the data were processed

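The authors deposited 1 table of FPKM values, a unit the labels name, in which each library has a column and 0 columns lack a sample. Per the labels' protocols, Trizol RNA went into TruSeq libraries. The submitters' processing notes name Bowtie 0.12.2 and the build mm8, a mouse build, so the genome and annotation used for these Arabidopsis values, the counting tool and any use of strand are unknown here. Depth is unknown: a common step of low values between libraries was found for at most 9.42% of low genes, so no reads were recovered. Gene names, overlaps, coding identity and close copies (blastn 2.17.0) came from TAIR10.1, which held 32835 of the 33602 identifiers.

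From the deposited FPKM, log2(FPKM + 1) was fitted for the 19116 genes that reached 1 FPKM in 3 or more of 18 libraries, in 1 model with a coefficient for each of the 6 groups, with limma 3.58.1 in R 4.3.3 (empirical Bayes with a trend on the mean, 2-sided, Benjamini-Hochberg over all genes in each of 11 contrasts, threshold 0.05). Intervals are 95% and unadjusted. The script was tested on simulated data. Alternatives were a pseudocount of 0.1, no minimum, no variance trend, size factors, fits of only the libraries compared, leaving out each library, replicate 1 or 2 at 29 °C left out in all genotypes, and a block for replicate number, overall or within temperature. The members and lists were chosen with earlier results of these data known. Named were all 10 genes, up to 4 called genes per list by smallest p, and for each called gene the 3 most correlated genes with a mean of 2 FPKM or more.

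Replicate numbers were taken to pair groups where same-numbered libraries deviated together at over 0.1 for every number. This held for pif4 and the wild type at 22 °C (0.50, 0.49 and 0.60) and for bbx18 bbx23 and the wild type at 29 °C (0.70, 0.73 and 0.24), and the pairing comes from the data only. Figures were drawn with matplotlib 3.10.9.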

Additional observations from a re-analysis of the deposited data

How the results depend on the processing

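GA2OX2 was called in each warm response under every alternative except pif4 fitted with only its own libraries, where the number of gibberellin genes called went from 1 to 0. Once replicate number was blocked within temperature that number went to 3 in the wild type (GA2OX6 and GID1A added) and to 2 in bbx18 bbx23 (GA2OX6 added), and leaving out libraries gave 1 to 2 in each. Of all genes, the same block called 4731, 4786 and 4621 in the wild type, bbx18 bbx23 and pif4 in the warm, where 2711, 2596 and 2515 were called before, 13 between pif4 and the wild type at 22 °C, 47 at 29 °C and 8 for the pif4 difference of responses (5 with an overall block). The numbers do not pair the temperatures (correlations -0.38 to 0.18). Between genotypes the block changed no call among the 8 genes. Fits of only the libraries compared called 1289 genes in the wild type and 1096 in pif4 in the warm. They called 1 for bbx18 bbx23 against the wild type at 22 °C, 0 at 29 °C, 6 between pif4 and the wild type at 29 °C and 1 between the mutants. Without the minimum, 7 were called between pif4 and the wild type at 22 °C and 1 for the pif4 difference of responses, and with a pseudocount of 0.1 that difference had 0.

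Leaving out libraries gave 1519 to 2824 calls in the bbx18 bbx23 warm response (2060 without its replicate 1 at 29 °C), 1524 to 2518 in pif4, 1 to 4 for bbx18 bbx23 against the wild type at 22 °C and 0 to 4 at 29 °C, 13 to 29 for pif4 against the wild type at 29 °C (14 without replicate 1 in all genotypes, 15 without that of the wild type), 7 to 16 between the mutants (10 without replicate 1 in all) and 0 to 6 for the pif4 difference of responses. Where no call stood, signs turned. With a pseudocount of 0.1 the response of GA3OX2 was -0.18 in the wild type, -0.03 in bbx18 bbx23 and -0.06 in the mean, and that of GA20OX2 in pif4 was -0.13. With libraries left out, in the wild type, bbx18 bbx23, pif4 and the mean, GA3OX2 ran from -0.49 to 0.33, -0.39 to 0.39, -0.30 to 0.56 and -0.40 to 0.43 (the mean was -0.12 without wild-type replicate 2 and 0.20 without pif4 replicate 1 at 29 °C), and GID1C from -0.11 to 0.17, -0.11 to 0.27, -0.02 to 0.27 and -0.07 to 0.24. GA20OX2 ran from -0.04 to 0.33 in bbx18 bbx23, -0.32 to 0.22 in pif4 and -0.08 to 0.41 in the mean. GA2OX2 ran from -0.38 to 0.14 for bbx18 bbx23 and -0.11 to 0.44 for pif4 against the wild type at 29 °C, -0.63 to 0.02 between the mutants, and -0.09 to 0.42 and -0.25 to 0.30 for the differences of responses (without replicate 1 at 29 °C in all genotypes, 0.07 for bbx18 bbx23 against the wild type and 0.23 for the pif4 difference of responses). Of the 56 differences between genotypes or of responses, 39 changed sign in at least 1 alternative and 0 were called in any. The unknown read depth limits GA20OX1, GA20OX2, GA2OX8 and GA3OX2 most, and 3 libraries a group limit every comparison of genotypes.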

Other observations

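Other genes ran close to the called gibberellin genes over the 18 libraries. These correlations, with 2 temperatures and replicate numbers shared by all genes, are given as descriptions with no test. Closest to GA2OX2 in log2(FPKM + 1) were CYP76C1, a cytochrome P450 that oxidises linalool, at a Pearson r of 0.956, AT1G51610 at 0.954 and LZF1, the B-box gene also named BBX22, at 0.949 (n = 18 libraries each). LZF1 averaged 3.41 FPKM at 22 °C and 11.8 at 29 °C, and CYP76C1 5.78 and 15.4. Closest to GA3OX1 were the glutaredoxin gene ROXY2 at 0.913, AT3G21360 at 0.911 and the thaumatin-like gene PR5 at 0.907, all lower at 29 °C, with ROXY2 at 5.22 and 2.30 FPKM. Closest to GA2OX6 were CYP71B6 at 0.922, AT3G51660 at 0.920 and AT1G25370 at 0.888, and closest to GID1A were AT5G14240 at 0.913, AT3G47160 at 0.896 and the protein phosphatase gene TOPP7 at 0.889.

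Further gibberellin genes differed between replicates 1 and 2 at 29 °C in the same direction in all 3 genotypes (named after their values were seen). Replicate 2 was higher by a mean of 2.21 log2 for the DELLA gene RGL2, by 3.08 for the GATA factor gene GNL and by 1.56 for GNC. It was lower for the 3-oxidase repressor genes TEM1 and TEM2, at a mean of -2.92 and -1.80. Of the 3-oxidases, GA3OX2 was higher in replicate 2 by a mean of 1.64 log2. GA3OX1, the main 3-oxidase, was instead lower in replicate 2 in the wild type and in bbx18 bbx23, and higher in pif4. A link between these genes was not tested.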
